A study of Mus musculus with 6 samples.

Results

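Carbonic anhydrases were followed in the livers of nude mice that had received vesicles of a human colorectal cancer line. The 8 genes described, Car1, Car2, Car3, Car4, Car5a, Car8, Car13 and Car14, were chosen by name from the carbonic anhydrase family with the results of these same arrays known, and all their probes were used, 14 of 56605 probes on the array (8 of 37074 gene names). Because the signals compared here also served to choose the genes, their values are given as a description. Whether 1 of these genes or probes passed the threshold of the fit is stated without its p-value, and not as evidence of a difference. The sEV group held livers of nude mice injected through the tail vein with small extracellular vesicles, the small membrane-bound particles shed by cells, here purified from cultures of SW620, at 20 µg a time, 10 times over 21 days. The Control group held livers of nude mice given PBS, a salt buffer, on the same schedule. Nude mice lack a thymus and so mature T cells, and both groups share that background. Each group had 5 mice, of which 3 livers were arrayed, 1 liver per array, as total RNA labelled with Cy3. The labels give neither the age nor the sex of the animals.

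Carbonic anhydrases are zinc enzymes that turn carbon dioxide and water into bicarbonate and a proton, and back. Car1, Car2, Car3 and Car13 work in the cytosol, Car5a in mitochondria, where in liver it supplies bicarbonate for urea synthesis and for pyruvate carboxylase, and Car4 and Car14 at the cell surface, with the catalytic domain outside. Car8 has lost the catalytic activity and is known from the cerebellum as a protein that binds the IP3 receptor. Car3 has low hydratase activity and is abundant in hepatocytes, fat and slow skeletal muscle, and in rats its liver level is higher in males and depends on growth hormone.

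The 3 probes of Car3, the single probe of Car2 and the 2 probes of Car8 are shown because the differences between groups described below were read from them. Each line gives 30 bases of the 60-base probe, 5′ to 3′, as the array design lists them, and the capitals mark the longest run that the probe shares with a probe of another gene name on the same array.
Car3 A_51_P431329: atgcaaccgCAGTGCCTTTTGAcatgatct
Car3 A_55_P2936152: cctttgagTTTCTAATGTGTTCcaagccag
Car3 A_55_P2934767: tatcgttaCATGTTACCCTTTCCcagtttt
Car2 A_51_P455647: tgcttactaACAAAATGTGAAAagcaagac
Car8 A_51_P392005: tgtttgtATGAATGGATTTGAAAgtctaat
Car8 A_66_P126640: cctttatagTGACCTAATTACAttttctga
The longest shared runs were 13, 14 and 15 bases for the Car3 probes in this order, 13 for Car2, and 16 and 13 for the Car8 probes. A run of 16 bases or more occurs in 12.7% of all probes, and among these 6 only in the first Car8 probe, which shares it with 1 other probe. In mm9, the build named in the file headers, Car3 A_51_P431329 lies at chr3:14871781-14871840 on the plus strand and was designed on NM_007606. The other Car3 probes lie at chr3:14865173-14865232 and chr3:14865478-14865537 on the same strand, 6608 and 6303 bases upstream of it, and both were designed on another transcript, ENSMUST00000195575. Car2 A_51_P455647 lies at chr3:14900206-14900265 on the plus strand (NM_009801). The Car8 probes lie on the minus strand at chr4:8070545-8070604 (A_51_P392005) and chr4:8068657-8068716 (A_66_P126640), both on NM_007592. Whether these positions are exonic, intronic or in a UTR was not determined, as no genome annotation of that build was used here. Of the 14 probes, 10 are on chromosome 3, where 5 of the 8 genes lie.

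Of 62976 spots per array 59305 held gene probes rather than controls, and 49.9% to 53.3% of these were well above background on sEV arrays, against 50.9% to 54.7% on Control arrays. The processed signal had its 75th percentile at 402 to 424 on sEV arrays and at 440 to 506 on Control arrays. Levels below are log2 of the processed signal minus that percentile of the same array, so a level of 0 is the 75th percentile of the array, and levels of different probes are not compared. All arrays shared 1 slide, with sEV 1 and all Control arrays in slide row 1 and sEV 2 and sEV 3 in row 2. The tissue label was checked against 12 hepatocyte markers, all of them above background on all 6 arrays. Alb, the albumin gene, averaged 9.61 ± 0.26 in sEV livers and 9.47 ± 0.09 in Control livers (SD, n = 3 each), a log2 fold change of 0.15 ± 0.14 (SE) with a limma adjusted p of 0.516. Of the 14 carbonic anhydrase probes, 9 were well above background on all 6 arrays, 3 on some and 2 on 0, with 0 saturated values.

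Car3 had the largest difference of the 8 genes, and all 3 of its probes were lower in sEV livers. At the brightest probe, A_51_P431329, the level was 7.06, 6.74 and 6.82 in sEV livers, against 7.87, 8.05 and 7.91 in Control livers. The groups did not overlap, and the gap between the highest sEV and the lowest Control liver was larger than the spread within either group. The mean was 6.88 ± 0.17 in sEV livers and 7.94 ± 0.09 in Control livers (SD, n = 3 each), a log2 fold change of -1.07 ± 0.11 (SE), or 2.10-fold lower. The mean signal of this spot was 5.60% to 7.44% of the scanner's saturation value on sEV arrays and 15.3% to 15.7% on Control arrays. In bulk liver, fewer cells of a type and less RNA per cell cannot be told apart.

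The dimmer Car3 probes showed larger differences and a wider spread. At A_55_P2936152 the level was -0.15, -2.39 and -1.61 in sEV livers, against 2.58, 1.77 and 2.07 in Control livers. All 6 arrays were above background there, the groups did not overlap, and the mean was -1.38 ± 1.14 in sEV livers and 2.14 ± 0.41 in Control livers (SD, n = 3 each), 11.5-fold lower (log2 fold change -3.52 ± 0.56, SE). At A_55_P2934767 the level was -1.603, -4.41 and -3.38 in sEV livers, against 1.18, 0.39 and 0.60 in Control livers. This probe was above background on 2 of 3 sEV and 3 of 3 Control arrays, again without overlap, and was 14.5-fold lower (log2 fold change -3.86 ± 0.68, SE). The difference between the probes' fold changes was not tested. At all 3 probes sEV 1 was the highest and sEV 2 the lowest of the sEV livers, while the Control livers stood in another order at the bright probe than at the dimmer ones.

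**Figure D1:**
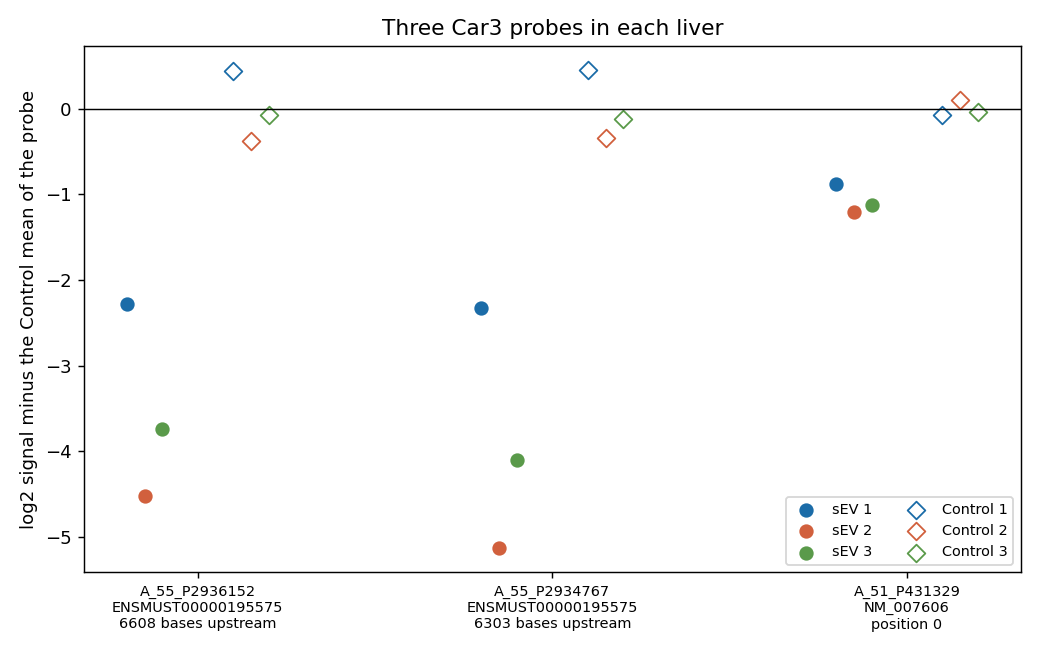
Level of the 3 Car3 probes in each liver as a log2 difference from the Control mean of that probe (y axis), with probes placed in the order of their position upstream of the bright one (x axis); filled circles are sEV livers and open diamonds Control livers. All sEV points lie below all Control points at each probe, and sEV 1 lies nearest to the Control livers at each.

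With the slide row as a block, where the contrast rests on sEV 1 against the Control livers, the log2 fold change was -0.88 ± 0.13 at the bright Car3 probe and -2.28 ± 0.41 and -2.33 ± 0.47 at the dimmer ones. Skeletal muscle and fat, which also hold Car3, were followed through their markers. Counts for this and later lists stand beside those over all 19447 genes tested, of which 16.9% passed. The lists were also chosen with earlier results of these data known, so their counts are given as a description. Of these genes 1716 rose and 1578 fell. Of 12 skeletal muscle markers, most of them of fast fibres, 5 were tested and 0 rose or fell, with a median log2 fold change of 0.07, between 0.33 for Myh4, a fast myosin heavy chain (adjusted p = 0.139), and -0.10 for Tnnt3, a fast troponin T (adjusted p = 0.610). Their summed signal, in units of the array's 75th percentile, was 0.69 to 0.84 on sEV arrays and 0.62 to 0.70 on Control arrays, and Ckm, Myh1, Mb, Tnnc2 and Actn3 were above background on none of the 6. Of 10 adipocyte markers 5 were tested and 1 rose, Lep, the leptin gene (log2 fold change 0.48 ± 0.11, limma adjusted p = 0.0332), a call that ended under median scaling and with the slide row as a block. Their summed signal was 5.22 to 6.47 on sEV arrays and 5.49 to 6.44 on Control arrays, with Adipoq and Retn above background on none.

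Car2, the high-activity cytosolic enzyme of red cells, osteoclasts and many epithelia, was also lower in sEV livers. Its level was 0.83, 0.43 and 0.64 in sEV livers, against 1.32, 1.26 and 1.37 in Control livers. The groups did not overlap, and the Control livers lay closer together than the sEV livers. The mean was 0.63 ± 0.20 in sEV livers and 1.32 ± 0.06 in Control livers (SD, n = 3 each), 1.605-fold lower (log2 fold change -0.68 ± 0.12, SE). Blocking on slide row gave a log2 fold change of -0.48 ± 0.14.

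Car1, the most abundant carbonic anhydrase of red cells, had probes above background on all 6 arrays, and at neither did the groups separate. At A_52_P317653 (NM_009799) the level was 0.02, -0.15 and -0.40 in sEV livers, against -0.24, 0.05 and 0.07 in Control livers, a log2 fold change of -0.14 ± 0.14 (SE), and 0.06 ± 0.19 with the slide row as a block. At A_55_P2099952 it was -1.31, -1.45 and -1.62 in sEV livers, against -1.46, -1.20 and -1.18 in Control livers, a log2 fold change of -0.18 ± 0.12 (SE). Both probes were lowest in sEV 3 and overlapped between groups. Car13, another cytosolic enzyme, was above background on 0 of 6 arrays at its single probe (A_55_P2156855, NM_024495), and no fold is given. Its level there was -6.38, -6.43 and -6.18 in sEV livers, against -5.98, -5.45 and -5.31 in Control livers.

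Some markers of red cells, which hold much Car1 and Car2, differed between the same groups. Of 15 erythroid markers tested 5 fell and 0 rose, with a median log2 fold change of -0.73, while 8.11% of all genes fell. Ahsp, which encodes the chaperone of alpha globin, had a log2 fold change of -3.59 ± 0.34 and was above background on 1 of 3 sEV and 3 of 3 Control arrays. Slc4a1, the red cell chloride and bicarbonate exchanger, changed by -1.79 ± 0.32 (limma adjusted p = 0.0178) and Epor, the erythropoietin receptor, by -0.60 ± 0.15 (adjusted p = 0.0411). Rhd, a red cell membrane protein, was above background on none of the sEV arrays, against 3 of 3 Control arrays, and was at least 2.06-fold lower. Ahsp and Rhd met the filter through the Control arrays alone, so their p-values are not given, though both count among the 5 that fell. The summed signal of the list, in units of the 75th percentile, was 1168, 426 and 1441 on sEV arrays, against 1355, 1423 and 1486 on Control arrays. It was lowest in sEV 2, where Car2 and each Car3 probe were also lowest and Car1 was not, a match that rests on 1 liver. The other sEV livers stood in opposite order, as the sum was highest in sEV 3 and Car2 in sEV 1. In sEV 3 the sum was also above those of Control 1 and Control 2. The sum came mostly from the alpha globin genes Hba-a1 and Hba-a2. The tested globin genes and Alas2, a haem synthesis enzyme, were lower but did not pass. Among them were Hba-a1 (-0.58 ± 0.43, limma adjusted p = 0.384), Hbb-bt (-1.23 ± 0.56, adjusted p = 0.180) and Alas2 (-0.68 ± 0.25, adjusted p = 0.114). Epb4.2, Sptb and Add2 were above background on none of the 6 arrays. The part of red cell RNA in the Car1 and Car2 values was not tested. Blocking on slide row gave 2 erythroid markers lower and a median of -0.56.

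Bile duct cells, another liver cell that holds Car2, had a median log2 fold change of -0.04 over 9 tested markers. The summed signal of the whole list was 8.66 to 9.06 on sEV arrays and 8.67 to 12.2 on Control arrays, Cftr and Sctr being above background on none. The part of bile duct cells in the Car2 value was not tested either.

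Car5a, the mitochondrial enzyme, pointed the other way by a small amount. Its level at A_66_P108188 (NM_007608, chr8:124440230-124440289 on the minus strand) was 4.35, 4.14 and 4.04 in sEV livers, against 3.68, 4.02 and 4.003 in Control livers. All sEV livers lay above all Control livers, but the lowest sEV liver and the highest Control liver differed by less than the spread within either group. The mean was 4.18 ± 0.16 in sEV livers and 3.90 ± 0.19 in Control livers (SD, n = 3 each), a log2 fold change of 0.27 ± 0.13 (SE) that did not pass the threshold, and 0.45 ± 0.17 with the slide row as a block.

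Among genes of the pathways that mitochondrial bicarbonate feeds, first the urea cycle, more rose than fell. Of 10 tested genes listed with the urea cycle 7 rose and 0 fell, with a median log2 fold change of 0.69. The same counts were found with median scaling, quantile normalization and normexp. The list also holds Glul and Gls2, which handle glutamine, and Gls2 was among those that rose. Over all 19447 genes tested, 1716 rose and 1578 fell. Cps1, carbamoyl phosphate synthetase, which consumes bicarbonate, rose by 0.84 ± 0.09 on the log2 scale (limma adjusted p = 0.0044), and Ass1, argininosuccinate synthase, by 0.80 ± 0.11. Asl, argininosuccinate lyase, rose by 1.14 ± 0.18 and Slc25a15, the mitochondrial ornithine carrier, by 0.85 ± 0.13. Of 10 genes listed as bicarbonate-using 3 rose, with a median of 0.19: Cps1, Acacb, an acetyl-CoA carboxylase (0.50 ± 0.10, adjusted p = 0.0256), and Pck1, phosphoenolpyruvate carboxykinase (0.79 ± 0.09, adjusted p = 0.0048), which releases carbon dioxide rather than fixing bicarbonate. Pcx, pyruvate carboxylase, was among the 7 that did not pass. When slide row was a block, 1 gene of the urea cycle list rose, and 2 bicarbonate-using genes rose while 1 fell.

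The liver lobule has zones, and urea synthesis lies mainly in the periportal one. Of 12 periportal markers 10 rose and 0 fell, with a median of 0.74, among them Cps1 and Pck1 again, Sds, serine dehydratase (1.51 ± 0.16, adjusted p = 0.0041), and Sdsl, its paralogue (0.92 ± 0.12). Of 13 pericentral markers 1 rose and 2 fell, with a median of 0.17. Cyp7a1, the rate-limiting enzyme of bile acid synthesis, rose by 1.78 ± 0.44 (adjusted p = 0.0416), Lect2, a secreted hepatocyte protein, changed by -0.62 ± 0.09 and Nkd1, an inhibitor of Wnt signalling, by -0.54 ± 0.10. With the slide row as a block 3 periportal markers rose and 0 pericentral markers passed. Of the 12 hepatocyte markers 3 rose and 0 fell (median 0.23), namely Hnf4a, a hepatocyte transcription factor (0.53 ± 0.10), Tat, tyrosine aminotransferase (1.19 ± 0.12), and Hpd, a tyrosine catabolic enzyme (0.46 ± 0.12), against 1 with the slide row as a block and 2 with median scaling. These lists overlap and are not separate samples of genes: Cps1 stands in the urea cycle, bicarbonate-using and periportal lists, and Pck1 in the bicarbonate-using and periportal lists. Of the genes of the urea cycle list that rose, Ass1, Arg1 and Gls2 are also among the periportal genes that rose.

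Car14, the transmembrane enzyme, overlapped between the groups at both probes that were above background. At A_51_P175424 (NM_011797, chr3:95701859-95701918 on the minus strand) the level was 2.99, 3.07 and 2.91 in sEV livers, against 2.87, 2.995 and 3.14 in Control livers, a log2 fold change of -0.01 ± 0.10 (SE). At A_55_P2727429 it was -1.09, -0.88 and -1.04 in sEV livers, against -0.997, -0.79 and -0.77 in Control livers, a log2 fold change of -0.15 ± 0.11 (SE), or -0.24 ± 0.15 with the slide row as a block. In each case the difference was smaller than the range of the livers within either group. The dimmest probe, A_55_P2595387, designed on another transcript (ENSMUST00000149202), was above background on 0 of 6 arrays.

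Car4, anchored by a lipid to the cell surface, was above background on sEV 3 alone. Its processed signal at A_55_P2087182 (NM_007607, chr11:84777667-84777726 on the plus strand) was 4, 5 and 82 on sEV arrays, against 4, 5 and 4 on Control arrays, and it entered no test. Its level was -6.77, -6.43 and -2.32 in sEV livers and -6.91, -6.50 and -6.99 in Control livers. Car4 is known from the endothelium of several organs, and of 12 endothelial markers 1 fell, Stab1, a scavenger receptor of sinusoids (log2 fold change -0.53 ± 0.13, limma adjusted p = 0.0373), with a median of -0.25. Their summed signal was 28.2, 29.9 and 30.4 on sEV arrays, against 31.3, 40.3 and 36.6 on Control arrays. The Stab1 call ended with the slide row as a block, where 0 of these markers passed and the median was -0.41.

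Car8 gave different pictures at its probes. At the brighter one, A_51_P392005, the level was -2.70, -2.75 and -2.77 in sEV livers, against -3.03, -2.61 and -2.70 in Control livers. The groups overlapped there, with a log2 fold change of 0.04 ± 0.13 (SE) that turned to -0.01 under median scaling. At the dimmer one, A_66_P126640, which lies downstream in the same transcript, it was -4.19, -4.74 and -5.62 in sEV livers, against -3.65, -3.48 and -3.52 in Control livers. The groups did not overlap at the dimmer probe, where sEV 3 was lowest. That probe was above background on 1 of 3 sEV and 3 of 3 Control arrays, and its log2 fold change was -1.30 ± 0.34 (SE), 2.47-fold lower, which did not pass the threshold except with a variance trend in eBayes or without sEV 1. Blocking on slide row gave -0.64 ± 0.33, and with normexp background correction and an offset of 50 it was -0.16, the smallest among the alternatives.

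**Figure D2:**
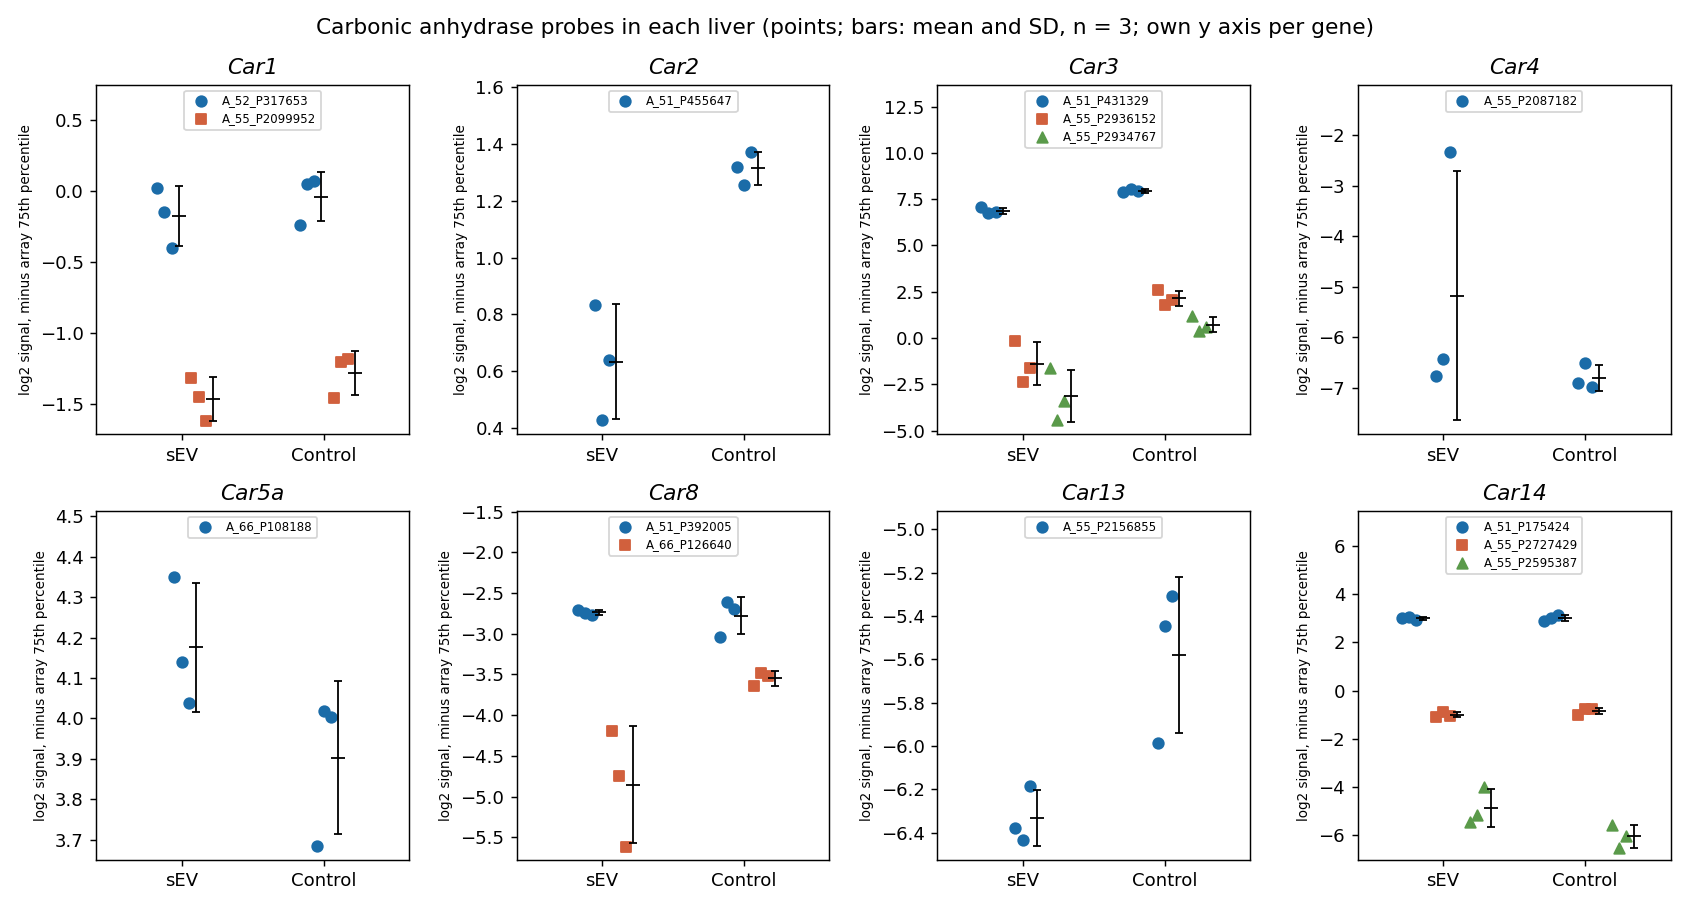
Level of each carbonic anhydrase probe in each liver (y axis, log2 signal minus the array's 75th percentile, own scale per gene; x axis, group), with symbols for probes and bars for the mean and SD of 3 livers. Among the 11 tested probes, the sEV livers lie below all Control livers for Car2, for the 3 Car3 probes and for the dimmer Car8 probe, and above them for Car5a. They also lie below them for Car13 and above them for the dimmest Car14 probe, both above background on 0 of 6 arrays. The Car4 point at -2.32 is sEV 3.

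Counted over genes, with the brightest probe for each, 6 of the 8 genes could be tested (Car4 and Car13 were too dim), and Car2 and Car3 passed an adjusted p of 0.05 in limma, both lower in sEV livers, with 0 higher. Over all 19447 genes tested 16.9% passed in either direction and 8.11% passed as lower. Counted over probes, 11 of 14 were tested and 4 passed, all lower: the Car2 probe and the 3 Car3 probes, which are not separate genes. Over all 28766 probes tested 14.1% passed and 6.7% passed as lower. The groups did not overlap for 3 of the 6 genes, against 40.8% of all genes, and for 6 of the 11 probes, against 38.8% of all probes. The median log2 fold change was -0.07 over the 6 genes, beside 0.02 over all genes. As the genes were chosen with this contrast known, nothing is read from these counts. Leaving out Control 1, Control 3 or sEV 3 left 1 of the 2 genes past the threshold, Car3, as did the slide row as a block. Within slide row 1 alone 0 of the 2 passed.

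**Figure D3:**
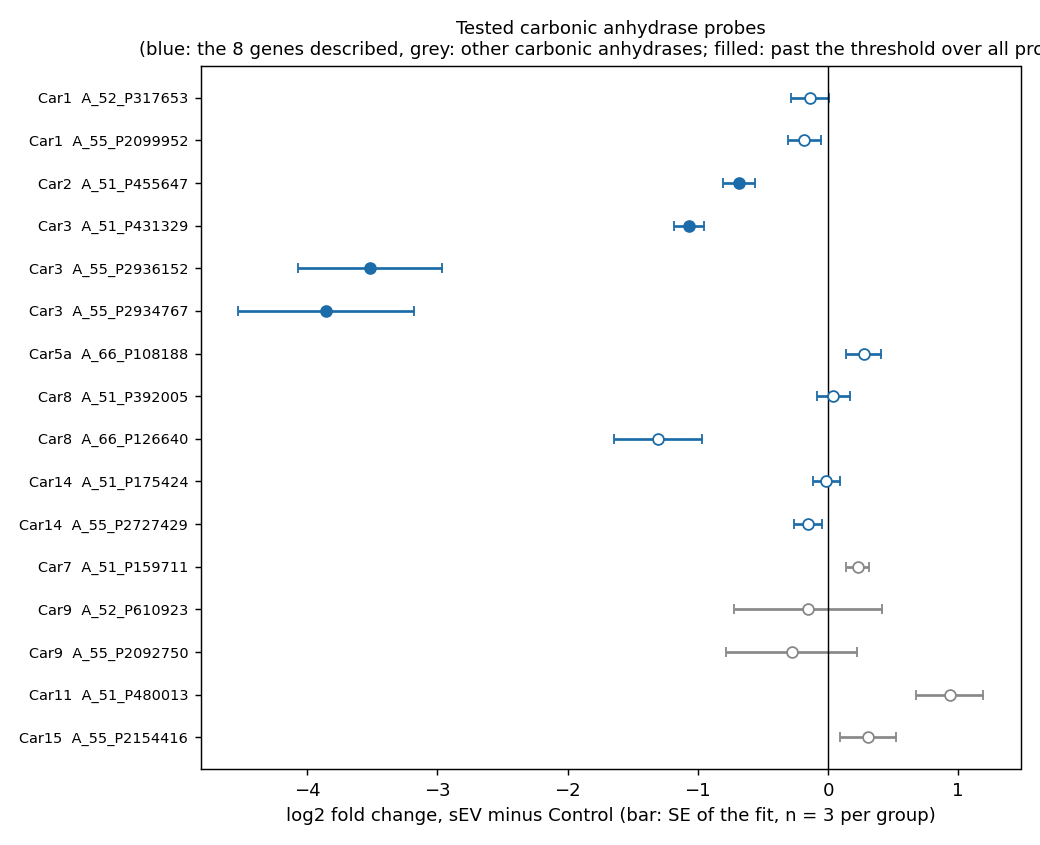
Log2 fold change, sEV minus Control (x axis), of each tested carbonic anhydrase probe (y axis), with bars for the SE of the fit (3 livers per group); blue marks the 8 genes described and grey the other family members, and filled points passed the threshold over all probes. The dimmer Car3 probes lie furthest to the left, at -3.52 and -3.86, followed by the dimmer Car8 probe at -1.30 and the bright Car3 probe at -1.07, and all other probes lie between -0.68 and 0.94.

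The other carbonic anhydrases on the array were 8 genes, of which 4 could be tested and 0 passed, with a median log2 fold change of 0.27. Car7, a cytosolic enzyme best known from brain, averaged 2.27 ± 0.08 in sEV livers and 2.04 ± 0.07 in Control livers (SD, n = 3 each), and its log2 fold change was 0.23 ± 0.09 (limma adjusted p = 0.120). Car11, a family member without catalytic activity, was near background (above it on 2 sEV arrays and 1 Control array), with 0.94 ± 0.26 (adjusted p = 0.0549). It passed with normexp at 0.40 and without Control 3 at 1.18. Car9, a membrane enzyme induced by hypoxia, was at -3.38, -1.11 and -1.48 in sEV livers, against -1.97, -1.56 and -1.99 in Control livers. Its log2 fold change of -0.15 ± 0.57 (adjusted p = 0.875) rested on sEV 1: it was 0.54 without that liver, and -1.54, past the threshold, with the slide row as a block. Car15, a membrane-anchored enzyme that mice have and humans lack, changed by 0.31 ± 0.22 (adjusted p = 0.364). Car6, a secreted enzyme of saliva, Car10, which lacks activity, and Car12, a transmembrane enzyme, were above background on none of the 6 arrays, and Car5b, the second mitochondrial enzyme, on 1 Control array.

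Bicarbonate, chloride and proton carriers work beside carbonic anhydrases in moving acid and base. Of 16 tested 1 rose and 5 fell, with a median log2 fold change of -0.08, and the same counts were found with median scaling and quantile normalization. Over all genes tested 16.9% passed in either direction and 8.11% fell. Normexp gave 3 higher and 5 lower. Slc26a6, an exchanger of chloride with bicarbonate and oxalate, rose by 0.64 ± 0.14 (adjusted p = 0.0272), while Slc26a4, the chloride and bicarbonate exchanger pendrin, changed by -1.14 ± 0.26 (adjusted p = 0.0322). Slc26a2, mainly a sulfate carrier, changed by -0.57 ± 0.09 (adjusted p = 0.0140), and Slc4a1 has been given with the red cell markers. Blocking on slide row left 0 of the 16 past the threshold and turned the median to 0.0746.

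Because Car3 in rat liver depends on sex and growth hormone, lists of such genes were set beside it. Of 10 male-biased liver genes 2 rose and 2 fell (median 0.33). Hsd3b5, a steroid-metabolising enzyme of male mouse liver, changed by -3.41 ± 0.44 (adjusted p = 0.0072) and Slco1a1, an organic anion carrier, by -3.15 ± 0.31, whereas Elovl3, a fatty acid elongase, rose by 1.56 ± 0.31 and C6, a complement component, by 0.86 ± 0.11. Of 12 female-biased genes 1 rose and 3 fell (median -0.28). A1bg, a plasma glycoprotein gene, changed by -5.07 ± 0.26 (adjusted p = 0.000306) and Hao2, a hydroxyacid oxidase, by -3.74 ± 0.23, Prlr, the prolactin receptor, by -0.94 ± 0.12, and Cyp2b9, a cytochrome P450, by 0.68 ± 0.12. Of 10 genes of growth hormone signalling 1 fell, Ghr, the receptor itself (-0.51 ± 0.12, adjusted p = 0.0338), with a median of -0.31, and under normexp 4 fell. The Ghr call ended with the slide row as a block, where 0 of the 10 passed. Members of both the male-biased and the female-biased list fell and rose beside Car3. With the slide row as a block 2 male-biased and 3 female-biased genes fell and 0 rose in either list, and the median of the male-biased list turned to -0.63.

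Car3 has also been described as an antioxidant protein whose cysteines are modified by glutathione. Of 16 glutathione and antioxidant genes 2 rose and 0 fell with a median of 0.05, Glrx, glutaredoxin (0.42 ± 0.10, adjusted p = 0.0376), and Gpx4, a lipid peroxide reductase (0.36 ± 0.08, adjusted p = 0.0327), calls that ended under median scaling and with the slide row as a block, where the median was -0.0122.

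**Figure D4:**
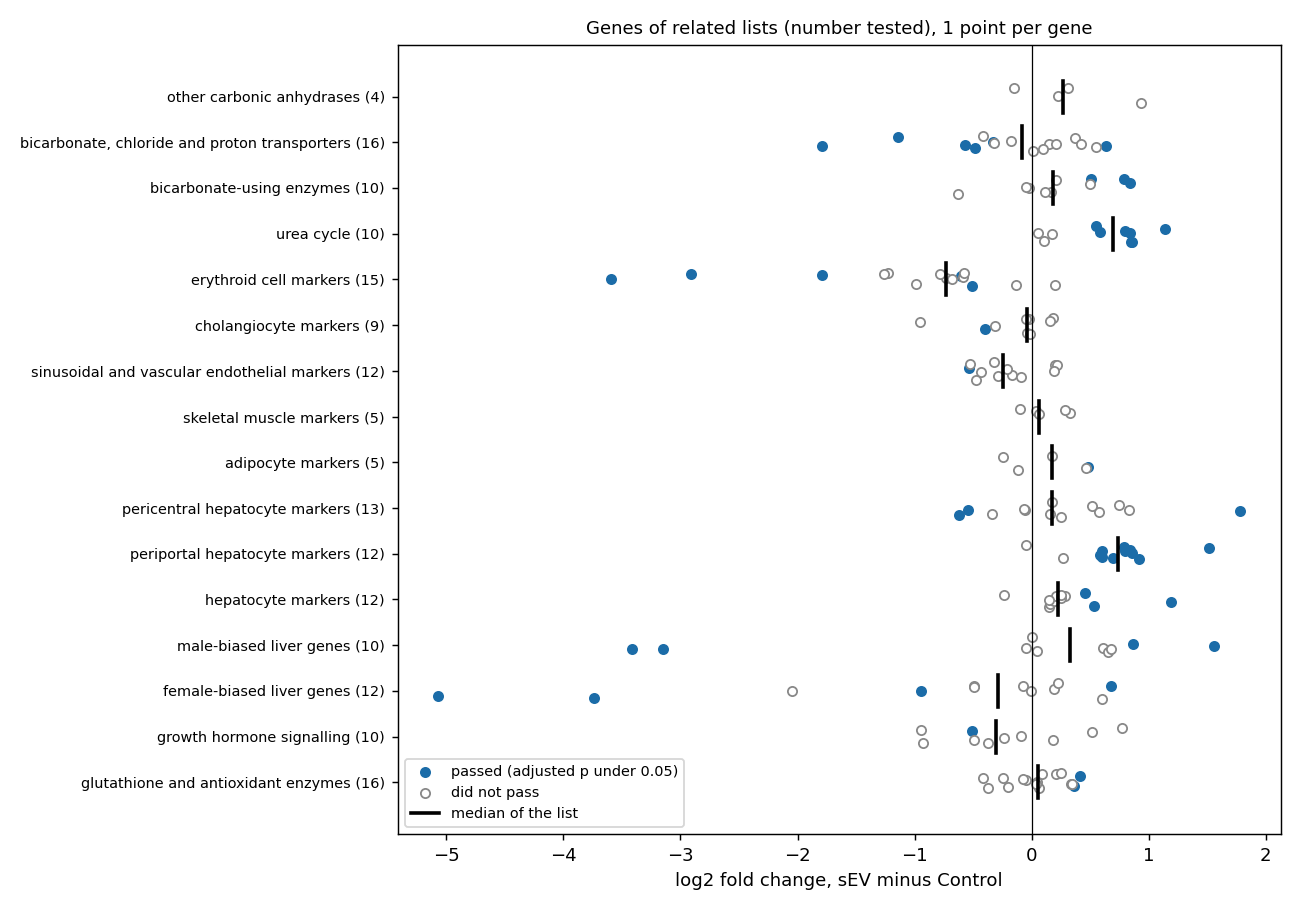
Log2 fold change, sEV minus Control (x axis), of the tested genes of each related list (y axis, number tested in parentheses), 1 point per gene, with filled points for an adjusted p under 0.05 and a black line for the list's median. Urea cycle and periportal genes lie mostly to the right (medians 0.69 and 0.74) and erythroid markers to the left (-0.73); 1 gene can stand in several lists. Over all 19447 genes tested 16.9% passed, 1716 as higher and 1578 as lower.

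Among 13444 named genes compared, the genes whose levels over the 6 arrays, each centred on its own mean, lay nearest to the bright Car3 probe were Ctse, an aspartic protease (root mean square distance 0.056 on the log2 scale), Prlr (0.0849) and Ifit3b, an interferon-induced gene (0.0935). Nearest to Car2 were Setd8, a histone methyltransferase (0.0532), Alg13, of the glycosylation pathway (0.060), and Foxa1, a liver transcription factor (0.0742). These 6 arrays hold 1 contrast, so that many genes that differ between the groups by a like amount lie close.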

How the data were processed

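Liver RNA of 3 sEV and 3 Control nude mice was measured on 1-colour Agilent arrays, and the submitters' processing notes name Agilent Feature Extraction 10.7.1.1. As deposited, each scanner file gives intensity per spot: a processed signal that was background-subtracted and detrended within its array, per the file headers, and not scaled between arrays, with mean and background signal beside it. The authors' value table holds log2 values with a median of 4.50 on each array, and the sources used here do not give how it was made.

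For each level, the 75th percentile of its array was subtracted from log2 processed signal, without control spots and outlier-flagged spots (91 to 171 per array), averaged per probe. A probe had to be well above background on 3 or more of the 6 arrays. The fit used lmFit and eBayes of limma 3.58.1 (R 4.3.3), on 28766 probes and on 19447 genes (brightest probe per gene), with Benjamini-Hochberg adjustment over the whole table and a threshold of 0.05. The gene fit was tested on simulated data that held no slide-row effect and no background floor. The ± after a fold change is the SE of the probe fit for the 8 genes and of the gene fit for others. A fold with 1 group not above background is a bound against the lowest signal well above background of each array. Summed list signals add 2 to the power of the level over all genes of a list on the array, each at its brightest probe. Genes that were not tested are included. Genes are named as in the array's own annotation. The labels do not say more of the samples than 1 liver each, and 3 arrays per group limit the precision of every value.

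The genes described and all 16 lists were chosen with earlier results of these data known. Named were all probes of the 8 genes, all other tested carbonic anhydrases, up to 4 genes past the threshold per list by size of the moderated t (otherwise the highest and lowest), the 3 nearest profiles to the 2 genes with the largest change, and Alb. Some genes of these lists are not reported here. Alternatives changed background correction, scaling, the filter, probes per gene, variance trend, the value table, replicate and slide-row blocks, and left out each array. Deviations of arrays with the same number correlated at 0.02, 0.16 and 0.02, so numbers were not taken as pairs. Plots were made in Python 3.11.15 using matplotlib 3.10.9.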

Additional observations from a re-analysis of the deposited data

Results flagged for a closer look

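The single Car4 probe entered no comparison because it was above background on 1 array, and it stood out there: on sEV 3 its level was -2.32, while sEV 1 and sEV 2 were at -6.77 and -6.43 and the Control livers between -6.99 and -6.50. The signal is seen in 1 of 3 sEV livers at 1 probe, and its source was not tested.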

How the results depend on the processing

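Without the filter on dim probes 801 genes and 939 probes passed, with the replicate block 2176 and 2589, with the slide row as a block 721 and 788 (611 of the 721 genes shared a direction with the 3294 calls), and within slide row 1, an alternative chosen after seeing the data, 608 and 677, against 3294 and 4069. Leaving out 1 array gave 1329 to 2761 genes and 1505 to 3219 probes. The 3294 calls were 1716 higher and 1578 lower, 1092 and 1601 with median scaling. Of the carbonic anhydrase genes lower in sEV livers (2), 1 remained without the filter and with the slide row as a block, 0 within slide row 1, and 1 to 2 without 1 array; of the probes (4), 2, 1 and 2, and 1 to 5 without 1 array, the fifth, without sEV 1 and also with a variance trend in eBayes, being the dimmer Car8 probe. The number of genes or probes higher was 0 throughout. At the bright Car3 probe the log2 fold change ran from -1.25 to -0.88 and passed in 15 of 16 alternatives (the gene was at -2.81 with the mean of its probes), at Car2 from -0.78 to -0.48 in 9 of 16. The dimmer Car3 probes ran from -4.14 to -2.28 (14 of 16) and from -4.62 to -2.33 (9 of 15). Values that changed sign were Car1 at 0.0585 (slide row as a block and within row 1), Car8 at -0.0122 with median scaling and -0.63 with the mean of its probes, and Car9 at 0.0107 with normexp. Leaving out 1 array, Car14 ran from -0.0789 to 0.0588 (above 0 also without sEV 3, 0.0263), Car8 from -0.0877 to 0.126, Car9 from -0.59 to 0.54 and its other probe from -0.585 to 0.24. The causes were not tested. The replicate block changed no call of the 8 genes, and Car11 passed under it (0.94). Probes near background limit the Car4, Car8, Car11 and Car13 values most.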
